A study of Mus musculus with 12 samples.

Results

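Expression of 39 cell cycle and proliferation genes was measured in mouse sciatic dorsal root ganglia (DRG), the ganglia that hold the cell bodies of the sensory axons of the sciatic nerve. The genes were taken by name for their known roles in cell division, and all 39 were found among the 44345 gene names of the count table. They comprise 9 genes of G1 (the D and E cyclins, their kinases and E2f1), 3 inhibitors of cyclin-dependent kinases (CDK), 10 genes of DNA replication and 17 genes of G2 and mitosis. Of the 39 genes, 37 were expressed highly enough to be tested, and Ccnb2 and Aurkb were not.

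RNA of whole L4 to L6 DRG was sequenced in 4 groups of C57BL/6 mice aged 5 to 8 weeks. The groups were SH Sham (10 days of standard housing, then sham surgery), SH SNA (the same housing, then sciatic nerve axotomy), EE Sham (10 days of enriched environment, then sham surgery) and EE + SNA (enriched environment, then axotomy). Ganglia were collected 24 h after surgery, and every group had 3 samples, each a pool of the ganglia of both sides of 2 mice. The mice carried no transgene and were not given a test compound. All had surgery under isoflurane, with buprenorphine and carprophen for pain. A sample averages neurons, glia and every other cell of the ganglion. In such samples, more cells of a type and more RNA per cell cannot be told apart. The comparisons ask whether axotomy, housing or both together changed the expression of genes that drive or restrain division.

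A cell commits to division in G1, when D and E cyclins with their kinases release E2F factors, which switch on the genes of DNA replication. In G2 and mitosis, cyclin B with CDK1 and the Aurora and Polo kinases condense, attach and separate the chromosomes. CDK inhibitors hold these kinases back. Sensory neurons are postmitotic, whereas satellite glia, Schwann cells and macrophages of the ganglion can divide. Cdkn1a, which encodes the CDK inhibitor p21, is a target of p53 and belongs to the genes known to be induced in DRG after peripheral nerve injury.

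Reads on genes numbered 11343579 to 22871460 per sample, and 46.7% to 47.6% of the reads entering the count fell on no gene. Why they did so was not tested. All 10 sensory neuron markers examined were detected, with a summed level of 10061 to 11612 CPM (read counts scaled to the library total). All 6 injury response genes examined (Atf3, Sprr1a, Gap43, Sox11, Jun and Gal) rose after SNA over both housings, beside 22.4% of all genes called. Samples were not alike in other cell types. EE + SNA replicate 3 had the highest summed level of markers of marrow granulocyte precursors, mature neutrophils, erythroid cells and macrophages, and SH SNA replicate 2 the highest level of skeletal muscle markers. Their values are given beside the results they move with. The study describes EE Sham as a dataset obtained earlier than the SNA groups, and the labels give no sequencing run. Dataset and condition therefore cannot be told apart in EE Sham against SH Sham or in EE + SNA against EE Sham, and the effects over both housings or both surgeries and the interaction also use EE Sham.

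Levels were compared between genes in FPKM, which are divided by gene length. Cdkn1a had the highest level of the 39 genes, with a mean of 75.7 FPKM over the 12 samples and a range of 46.3 to 102 FPKM. Cdk4, the kinase of the D cyclins, followed at 20.7 FPKM, Cdkn1b (p27), with 16.1 to 20.9 FPKM over the samples, the sliding clamp Pcna at 16.1 FPKM and Ccnd1 (cyclin D1) at 8.69 FPKM. Cdk4 shares 641 of its 3249 exon bases with Tspan31 on the opposite strand. The G2 and mitosis genes were low, with a median of 0.552 FPKM against 3.04 FPKM for the G1 genes and 1.91 FPKM for the replication genes. In all, 17 of the 39 genes had a mean under 1 FPKM. Cdk1 stood at 0.379 FPKM, Ccnb1 (cyclin B1) at 0.204 FPKM and the proliferation marker Mki67 at 0.741 FPKM. At these levels, differences rest on few reads.

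The promoters of these genes carry short motifs that are known to bind cell cycle factors. RefSeq starts on GRCm38.p6 were matched for 32 of the 39 genes, and the window from 250 bases before to 50 bases after the start was searched on both strands. Of the 36 starts of these genes, 27 had their first 25 transcribed bases in a transcript of the gene. Presence or absence of a motif depends on the start, and not every start passed this check. The cell cycle homology region (CHR, TTTGAA or TTCGAA), known as a site of complexes that hold mitotic genes silent outside G2, was present in 11 of 14 G2 and mitosis genes, 2 of 9 replication genes and none of the 6 G1 genes or 3 inhibitors, against 21.7% of all 27025 genes with a promoter in the table. The CCAAT box (CCAAT) was present in 25 of the 32 genes, against 41.1% of all genes. An E2F site (TTTGGCGC, TTTCCCGC, TTTCGCGC or TTTGCCGC) was present in 6 of the 32 genes, 4 of them replication genes (Mcm3, Mcm5, Mcm6 and Mcm7), against 2.60% of all genes. A gene was counted once for a motif if the window of any of its starts held it, however many copies there were, and a match is a description of the letters only. The windows below, of 30 bases each and written 5′ to 3′ on the strand of the gene with the motif in capitals, are shown because they come from genes that the results turn on.
Mki67, CHR, chr7:135716478-135716507, minus strand: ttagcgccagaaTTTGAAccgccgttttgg
Cdk1, CHR, chr10:69352913-69352942, minus strand: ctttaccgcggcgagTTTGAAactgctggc
Bub1b, CHR, chr2:118598011-118598040, plus strand: tctctccctgggTTCGAAggcttgtcttag
Top2a, CHR on the other strand, chr11:99024195-99024224, minus strand: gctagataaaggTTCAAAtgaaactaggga
Mcm7, E2F on the other strand, chr5:138172030-138172059, minus strand: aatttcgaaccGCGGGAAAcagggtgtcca
Aurka, CCAAT box, chr2:172370573-172370602, minus strand: gctccggctctagCCAATcagctcttggag
Pcna, CCAAT box on the other strand, chr2:132253251-132253280, minus strand: aaccacgggtacgATTGGtccttgaggaga
The Mcm7 window also holds a CHR (ttcgaa, from base −173 relative to the start) beside the E2F site. The promoters of Cdkn1a and E2f1 held none of the 3 motifs in this window.

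SNA changed 8 of the 37 genes over both housings (6 SNA against 6 Sham samples, edgeR quasi-likelihood test, Benjamini-Hochberg adjusted P under 0.05 over 16238 genes). Of all genes tested, 22.4% were called in this comparison, so that the share of cell cycle genes was close to that background. The genes that rose were the inhibitors Cdkn1a and Cdkn2c, the replication genes Mcm7 and Pcna, and the mitotic genes Tpx2, Aurka and Birc5. E2f1 fell. The median log2 fold change was 0.48 over the 15 G2 and mitosis genes tested, 0.49 over the 3 inhibitors, 0.19 over the replication genes and 0.085 over the G1 genes, beside 0.0071 over all genes tested. At the unadjusted P of 0.05 used by the study, 15 of the 37 genes passed, against 34.7% of all genes.

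**Figure D1:**
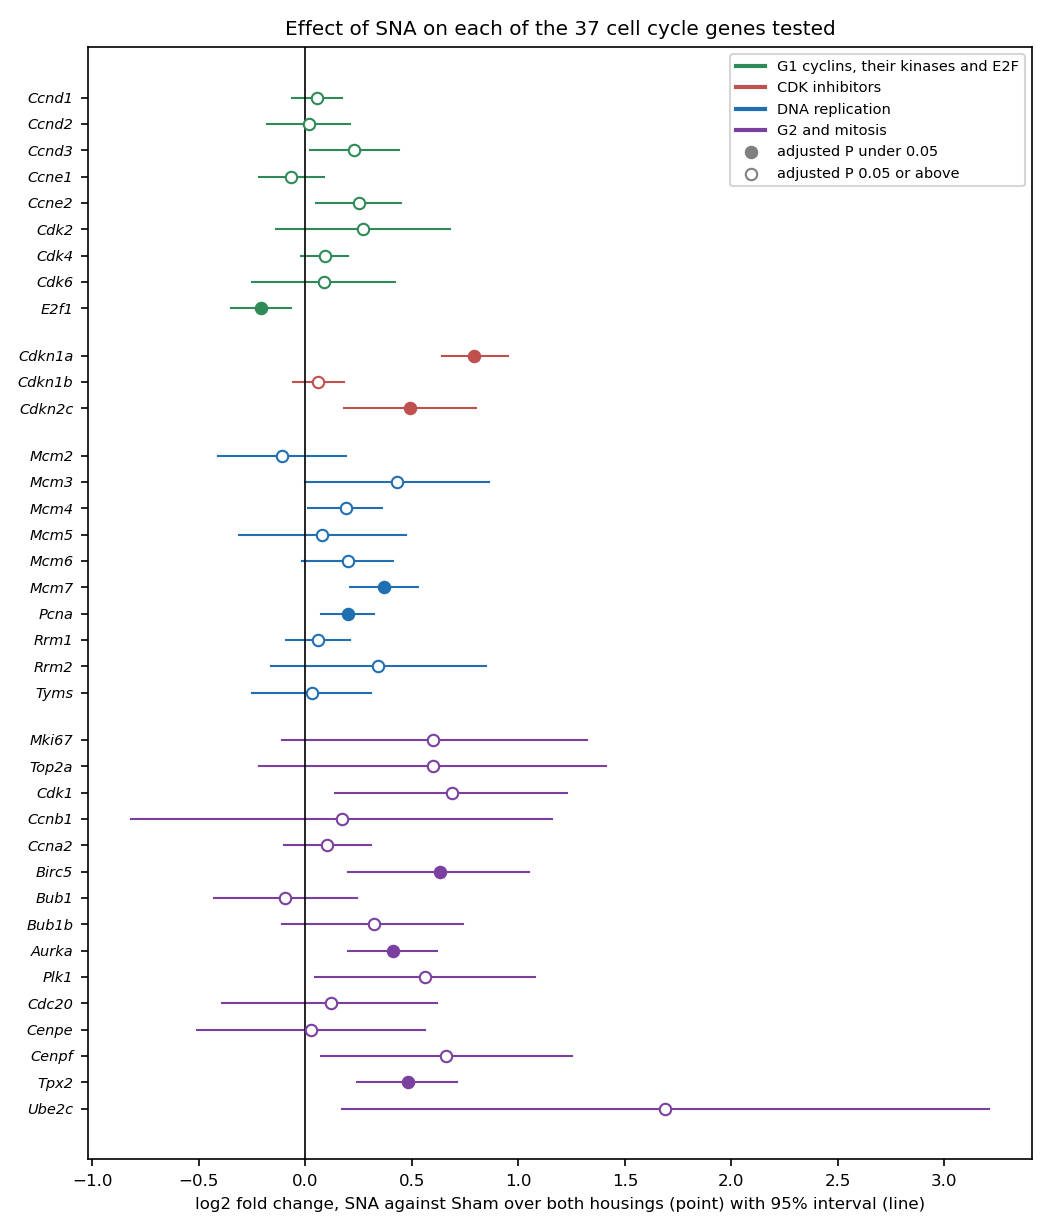
Log2 fold change of SNA against Sham over both housings (x axis) for each of the 37 genes tested, grouped by role, with 95% intervals as lines and filled points for an adjusted P under 0.05. Of the filled points, 7 lie to the right of 0 and 1 (E2f1) to the left, and the intervals of the mitotic genes are wide.

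Within each housing the counts were smaller. SH SNA differed from SH Sham in 3 of the 37 genes (Cdkn1a, Mcm7 and Tpx2, all higher), with 11.2% of all genes called. EE + SNA differed from EE Sham in 1 gene (Cdkn1a, higher), with 4.83% of all genes called. EE + SNA differed from SH Sham in 4 genes (Cdkn1a, Cdkn2c, Birc5 and Bub1b, all higher), with 12.5% of all genes called. At the unadjusted threshold the counts were 10, 9 and 17 of 37, against 25.2%, 20.6% and 27.2% of all genes. The comparisons of EE + SNA share samples with one another, as do those with SH Sham.

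Among the CDK inhibitors, Cdkn1a lies on chromosome 17 (29090976 to 29100727, plus strand, GRCm38.p6). It was at 106, 131 and 116 CPM in SH Sham and at 228, 216 and 224 CPM in SH SNA. It was at 106, 147 and 138 CPM in EE Sham and at 204, 198 and 220 CPM in EE + SNA. Every SNA sample lay above every Sham sample. The rise was 1.90-fold in SH (log2 fold change 0.92 ± 0.073, SE; adjusted P = 9.32e-06, edgeR, n = 3 per group) and 1.58-fold in EE (0.66 ± 0.11; adjusted P = 0.0043). Against SH Sham, EE + SNA was higher by 0.81 ± 0.079 (adjusted P = 5.97e-05, edgeR). The effect of SNA after EE minus that after SH was −0.25 on the log2 scale, with a 95% interval of −0.55 to 0.042 and an unadjusted P of 0.0873, so that a difference between the housings was not shown. Sham samples of the 2 housings overlapped, as did the SNA samples. Cdkn1a was the only one of the 37 genes tested that was called in all 4 comparisons of SNA with Sham, and it was called under every alternative setting that was run.

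**Figure D2:**
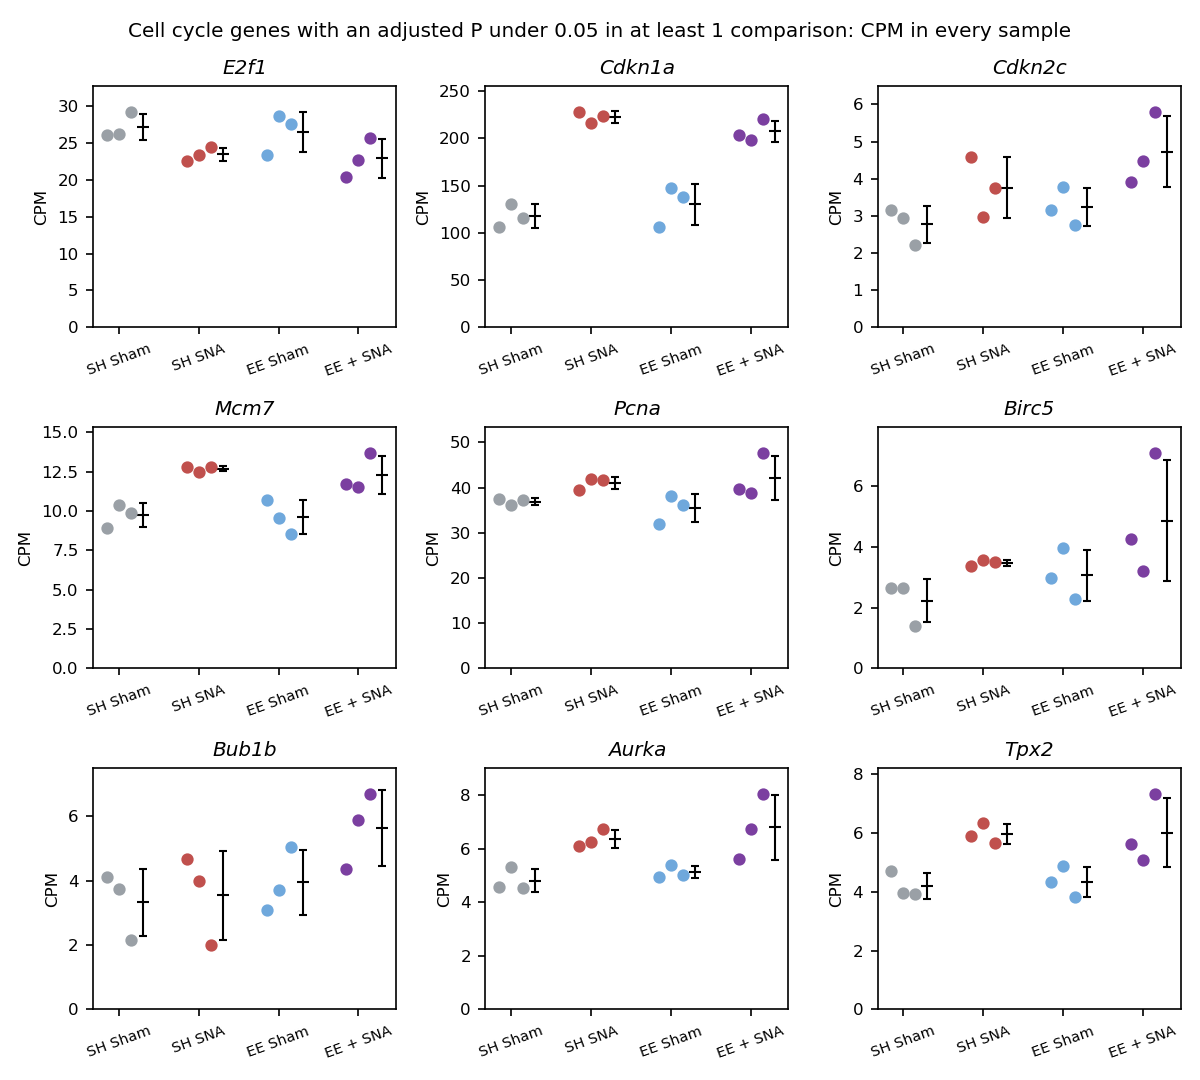
CPM (y axis, from 0) in each of the 12 samples for the 9 genes called in at least 1 comparison, with the mean and SD of each group of 3 beside the points. The SNA samples of Cdkn1a lie between 198 and 228 CPM, above Sham samples of 106 to 147 CPM, whereas E2f1, Birc5, Cdkn2c and Bub1b overlap between SNA and Sham over both housings.

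Cdkn2c, which encodes p18 and inhibits the kinases of the D cyclins, was expressed far lower. It was at 3.17, 2.94 and 2.21 CPM in SH Sham and at 4.59, 2.96 and 3.74 CPM in SH SNA. It was at 3.16, 3.79 and 2.76 CPM in EE Sham and at 3.92, 4.48 and 5.80 CPM in EE + SNA. EE + SNA lay above both Sham groups, while SH SNA overlapped with SH Sham. The rise over both housings was 0.49 ± 0.15 on the log2 scale (adjusted P = 0.0225, edgeR), and EE + SNA exceeded SH Sham by 0.76 ± 0.21 (adjusted P = 0.03). Against EE Sham the difference was 0.53 ± 0.20, past the unadjusted threshold only (adjusted P = 0.166, edgeR). Without EE + SNA replicate 3, the adjusted P was 0.0561 over both housings and 0.0813 against SH Sham. The first call was also lost on leaving out SH Sham replicate 3, SH SNA replicate 1 or EE Sham replicate 3, and the second on leaving out any SH Sham sample, with adjusted P of up to 0.0646 and 0.116. The third inhibitor, Cdkn1b, ranged from 73.1 to 97.1 CPM over all samples and passed no threshold in any comparison.

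The 5 genes whose log2 CPM followed that of Cdkn1a most closely over the 12 samples were Clic4 (Pearson r = 0.989), Trafd1, Fads3 and Slc35e4 (each 0.984) and Camk1 (0.982). These are descriptions over samples that share libraries, surgery and housing. Of 16 genes of the p53 response, 7 rose and none fell over both housings, beside 22.4% of all genes called, and a difference from that share was not tested. Among the 7 were Gadd45a, a growth arrest gene (1.67 ± 0.075 on the log2 scale), Pmaip1, which encodes the apoptosis protein Noxa (1.20 ± 0.11), Sesn2 (0.72 ± 0.11) and the antiproliferative gene Btg2 (0.68 ± 0.080). Gadd45a was at 74.1, 90.5 and 64.9 CPM in SH Sham and at 265, 268 and 234 CPM in SH SNA, with no overlap. In single housings, 5 of the 16 rose in SH SNA against SH Sham (11.2% of all genes called) and 4 in EE + SNA against EE Sham (4.83%). The log2 fold change of Trp53 itself over both housings was 0.016 ± 0.063.

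Among the G1 genes, Ccnd1 changed little. It was at 34.3, 32.9 and 33.4 CPM in SH Sham, at 36.8, 35.1 and 33.3 CPM in SH SNA, at 32.5, 30.8 and 33.5 CPM in EE Sham and at 37.4, 30.9 and 31.7 CPM in EE + SNA. All 4 groups overlapped. The 95% interval of its SNA effect over both housings ran from −0.061 to 0.17 on the log2 scale. Part of its exons (1100 of 4709 bases) is shared with a gene on the opposite strand.

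E2f1, the transcription factor released by cyclin D and E kinases, was the only gene called lower. It was at 26.0, 26.2 and 29.2 CPM in SH Sham and at 22.6, 23.4 and 24.4 CPM in SH SNA, without overlap. It was at 23.4, 28.6 and 27.5 CPM in EE Sham and at 20.4, 22.7 and 25.7 CPM in EE + SNA, with overlap. Over both housings it fell by 0.21 on the log2 scale (SE 0.067, adjusted P = 0.0319, edgeR), and leaving out 1 of 6 samples in turn (SH Sham replicate 3, SH SNA replicate 1, EE Sham replicates 2 and 3, EE + SNA replicates 1 and 2) raised the adjusted P above the threshold, to at most 0.078. In single comparisons the log2 fold change against SH Sham was −0.21 ± 0.083 in SH SNA and −0.24 ± 0.093 in EE + SNA, both past the unadjusted threshold only. The second was called without EE + SNA replicate 3 (−0.33 ± 0.090, adjusted P = 0.0364, edgeR). None of the other 8 G1 genes was called. Cyclin genes Ccnd3 and Ccne2 passed the unadjusted threshold over both housings, at 0.23 ± 0.099 and 0.25 ± 0.096, and in EE + SNA against EE Sham, at 0.32 ± 0.14 and 0.35 ± 0.13. For Ccnd3 these became 0.14 ± 0.087 and 0.16 ± 0.12 without EE + SNA replicate 3, past neither threshold, whereas the first was called without SH SNA replicate 2 (0.29 ± 0.087, adjusted P = 0.0236, edgeR). Ccne2 over both housings was called without SH Sham replicate 1 (0.32 ± 0.090) or EE + SNA replicate 2 (0.30 ± 0.098). Of its 3495 exon bases, 609 are shared with Ints8 on the opposite strand. Cdk4 ranged from 60.3 to 77.4 CPM, Ccne1 from 11.7 to 15.2 CPM, Ccnd2 from 8.11 to 11.5 CPM, Cdk2 from 1.47 to 4.27 CPM and Cdk6 from 1.37 to 2.37 CPM over all samples, and none of these passed either threshold.

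Mcm7, a subunit of the helicase that unwinds DNA at replication origins, was the replication gene with the clearest difference. It lies on chromosome 5 (138164583 to 138172422, minus strand). It was at 8.92, 10.4 and 9.90 CPM in SH Sham and at 12.8, 12.5 and 12.8 CPM in SH SNA. It was at 10.7, 9.56 and 8.53 CPM in EE Sham and at 11.7, 11.5 and 13.7 CPM in EE + SNA. No SNA sample overlapped with a Sham sample. The log2 fold change was 0.37 ± 0.077 over both housings (adjusted P = 0.00197, edgeR), 0.39 ± 0.10 in SH (adjusted P = 0.0321) and 0.35 ± 0.13 in EE (adjusted P = 0.139). In SH the call was kept without SH Sham replicate 2 only and was lost on leaving out any other sample, with adjusted P of up to 0.116. Its exons share 321 of 4426 bases with Ap4m1 on the opposite strand, which differed by 0.12 ± 0.067 over both housings and was not called.

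Pcna, the clamp that holds the polymerase on DNA, showed a small rise. It was at 37.5, 36.1 and 37.2 CPM in SH Sham and at 39.5, 41.9 and 41.7 CPM in SH SNA. It was at 32.0, 38.1 and 36.1 CPM in EE Sham and at 39.8, 38.9 and 47.7 CPM in EE + SNA. The SNA samples all lay above the Sham samples, by as little as 38.9 against 38.1 CPM. Over both housings the log2 fold change was 0.20 ± 0.058 (adjusted P = 0.0209, edgeR), and the adjusted P was 0.0545 without EE + SNA replicate 3 and 0.0566 without EE Sham replicate 1. Within the pairs of groups it was 0.15 ± 0.067 in SH, 0.24 ± 0.096 in EE and 0.18 ± 0.081 for EE + SNA against SH Sham, past the unadjusted threshold only. Without EE + SNA replicate 3 it was 0.14 ± 0.091 in EE and 0.083 ± 0.070 for EE + SNA against SH Sham.

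The other 8 replication genes were not called in any comparison. Mcm4 differed by 0.19 ± 0.083 over both housings and by 0.29 ± 0.10 in EE + SNA against SH Sham, and Rrm2, a subunit of ribonucleotide reductase, by 0.82 ± 0.36 in the latter, all past the unadjusted threshold only. For Rrm2 this became 0.27 ± 0.29 without EE + SNA replicate 3 and 1.22 ± 0.28 without EE + SNA replicate 2, where it was called, as was Mcm4 (0.40 ± 0.10). The subunits of the helicase did not move as one. Over both housings Mcm2 differed by −0.11 ± 0.14, beside the 0.37 of Mcm7. Mcm3 ranged from 1.38 to 4.59 CPM, Mcm5 from 2.68 to 5.56 CPM, Mcm6 from 9.27 to 15.6 CPM, Rrm1 from 14.8 to 20.6 CPM and Tyms from 3.20 to 5.48 CPM over all samples, with the highest value of each in EE + SNA replicate 3.

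Of the mitotic genes, Tpx2 and Aurka encode a spindle protein and the Aurora kinase that it activates. Tpx2 was at 4.69, 3.95 and 3.94 CPM in SH Sham and at 5.89, 6.34 and 5.65 CPM in SH SNA. It was at 4.33, 4.86 and 3.82 CPM in EE Sham and at 5.61, 5.09 and 7.33 CPM in EE + SNA. Aurka was at 4.58, 5.31 and 4.55 CPM in SH Sham, at 6.12, 6.25 and 6.76 CPM in SH SNA, at 4.96, 5.39 and 5.04 CPM in EE Sham and at 5.61, 6.74 and 8.06 CPM in EE + SNA. For both genes every SNA sample lay above every Sham sample. Over both housings Tpx2 rose by 0.48 ± 0.11 (adjusted P = 0.0048) and Aurka by 0.41 ± 0.099 (adjusted P = 0.00622, edgeR). Tpx2 was also called in SH, at 0.50 ± 0.14 (adjusted P = 0.0431), although leaving out any 1 of the 6 samples raised the adjusted P to between 0.0502 and 0.135. Aurka in SH (0.41 ± 0.14), both genes in EE (Tpx2 0.44 ± 0.18, Aurka 0.40 ± 0.16) and both in EE + SNA against SH Sham (0.49 ± 0.18 and 0.50 ± 0.16) passed the unadjusted threshold only. In EE, without EE + SNA replicate 3, Tpx2 differed by 0.28 ± 0.18 and Aurka by 0.28 ± 0.16, past neither threshold. Against SH Sham, Tpx2 was called without EE + SNA replicate 2 (0.62 ± 0.19).

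Birc5 encodes survivin, a subunit of the chromosomal passenger complex. It was at 2.64, 2.65 and 1.40 CPM in SH Sham and at 3.36, 3.55 and 3.50 CPM in SH SNA, without overlap. It was at 2.98, 3.95 and 2.27 CPM in EE Sham and at 4.27, 3.22 and 7.09 CPM in EE + SNA, with overlap. The rise was 0.63 ± 0.20 over both housings (adjusted P = 0.0338, edgeR) and 1.08 ± 0.31 in EE + SNA against SH Sham (adjusted P = 0.0384). Without EE + SNA replicate 3, which had more than any other sample, these became 0.45 ± 0.18 (adjusted P = 0.0957) and 0.70 ± 0.26 (adjusted P = 0.121). The first call was also lost without SH Sham replicate 3, any SH SNA sample, or EE Sham replicate 1 or 3, and the second without any SH Sham sample or EE + SNA replicate 1, with adjusted P of at most 0.0957 and 0.136. In SH SNA against SH Sham the difference was 0.63 ± 0.24, past the unadjusted threshold only.

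Bub1b encodes a kinase-like protein of the spindle checkpoint. It was at 4.11, 3.73 and 2.14 CPM in SH Sham and at 4.66, 3.97 and 1.99 CPM in SH SNA, which overlap throughout. It was at 3.07, 3.72 and 5.04 CPM in EE Sham and at 4.36, 5.87 and 6.69 CPM in EE + SNA. EE + SNA exceeded SH Sham by 0.76 ± 0.23 (adjusted P = 0.0492, edgeR), and this call was lost on leaving out any of these samples other than EE + SNA replicate 1, with 0.65 ± 0.24 (adjusted P = 0.114) without EE + SNA replicate 3. The differences from EE Sham (0.51 ± 0.21) and from SH SNA (0.68 ± 0.27) passed the unadjusted threshold only.

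The genes most used as marks of dividing cells had wide ranges. Mki67, which coats mitotic chromosomes, was at 4.52, 6.38 and 2.41 CPM in SH Sham, at 6.58, 4.06 and 10.9 CPM in SH SNA, at 9.84, 8.12 and 4.55 CPM in EE Sham and at 6.05, 5.05 and 21.9 CPM in EE + SNA. Top2a, a topoisomerase of replicating and condensing chromosomes, was at 2.35, 2.87 and 1.07 CPM in SH Sham, at 2.83, 1.86 and 3.26 CPM in SH SNA, at 2.17, 4.25 and 0.975 CPM in EE Sham and at 2.31, 2.05 and 9.35 CPM in EE + SNA. For both genes all groups overlapped, and 1 sample, EE + SNA replicate 3, stood far above the rest. Cdk1, the mitotic kinase, was at 0.763, 1.0 and 0.602 CPM in SH Sham, at 1.15, 1.18 and 1.59 CPM in SH SNA, at 1.17, 1.52 and 0.894 CPM in EE Sham and at 1.78, 1.09 and 3.06 CPM in EE + SNA. None of the 3 was called. Cdk1 passed the unadjusted threshold over both housings (0.69 ± 0.26), in SH (0.73 ± 0.32) and in EE + SNA against SH Sham (1.25 ± 0.40), and Mki67 did so in EE + SNA against SH Sham (1.27 ± 0.49). Without EE + SNA replicate 3 the last difference of Mki67 was 0.30 ± 0.28 and that of Cdk1 0.77 ± 0.36. Without EE + SNA replicate 2 both were called, at 1.67 ± 0.41 and 1.62 ± 0.36, and so was Cdk1 over both housings (0.88 ± 0.23).

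The remaining G2 and mitosis genes were not called. Cenpf, a kinetochore protein, differed by 0.88 ± 0.39 in SH SNA against SH Sham, by 1.18 ± 0.40 in EE + SNA against SH Sham and by 0.66 ± 0.28 over both housings. Plk1, the Polo kinase, differed by 0.95 ± 0.35 in EE + SNA against SH Sham and by 0.56 ± 0.24 over both housings, and Cdc20, an activator of the anaphase-promoting complex, by 0.68 ± 0.29 in EE + SNA against SH Sham. All of these were past the unadjusted threshold only, and without EE + SNA replicate 3 none of those that include this sample passed it, with Cenpf at 0.75 ± 0.37 and Plk1 at 0.64 ± 0.35 in EE + SNA against SH Sham. Ccnb1 ranged from 0.306 to 2.74 CPM, Ccnb2 from 0.229 to 2.01 CPM, Aurkb from 0.0812 to 2.01 CPM, Cenpe from 1.10 to 3.30 CPM and Bub1 from 1.69 to 3.26 CPM over all samples. Ccna2 (cyclin A2) ranged from 13.3 to 20.8 CPM, unlike Ccnb1 and Cdk1, and shares 510 of its 4083 exon bases with Exosc9 on the opposite strand, which ranged from 37.2 to 48.5 CPM.

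**Figure D3:**
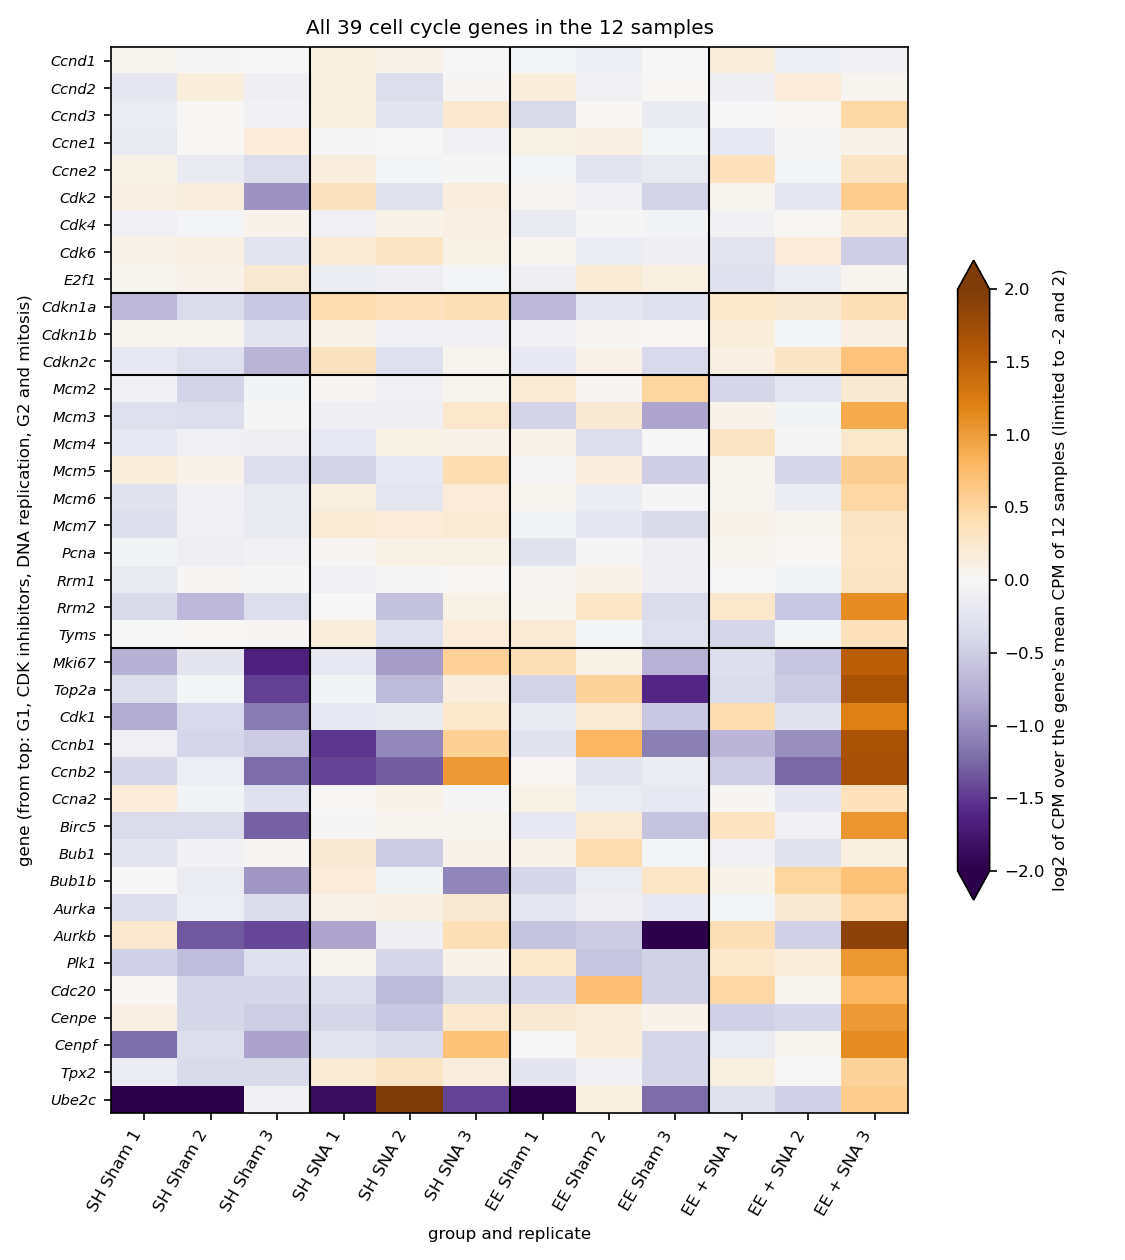
Log2 of the CPM in each of 12 samples (columns) over the mean CPM of that gene (colour, limited to −2 and 2) for all 39 genes (rows, by role). The column of EE + SNA replicate 3 is the highest for 27 of the 39 genes and for 15 of the 17 G2 and mitosis genes, and Ube2c stands out in SH SNA replicate 2.

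EE + SNA replicate 3 had the highest value of 27 of the 39 genes, which included 15 of 17 G2 and mitosis genes, 8 of 10 replication genes, 3 of 9 G1 genes and 1 of 3 inhibitors. The share of all genes tested that were highest in EE + SNA replicate 3 is not given here. The sum of 15 mitotic genes (those of G2 and mitosis without Ube2c and Ccna2, a choice made after their values were seen) was 82.8 CPM in EE + SNA replicate 3 and 23.1 to 45.1 CPM in the other 11. The second highest sum, 45.1 CPM, was in SH SNA replicate 3. The same samples had the most marrow granulocyte precursor markers. The 10 markers (such as Elane, Mpo and Camp) summed to 33.8 to 82.1 CPM in SH Sham, 48.8 to 137 CPM in SH SNA, 44.1 to 107 CPM in EE Sham and 63.1 to 322 CPM in EE + SNA, with 137 CPM in SH SNA replicate 3 and 322 CPM in EE + SNA replicate 3. No marker of this list was at 0 in all samples, and 9 of the 10 could be tested. Over both housings none of the 9 was called and 5 passed the unadjusted threshold, all higher after SNA. In EE + SNA against SH Sham, where Birc5 and Bub1b were called, 1 of the 9 was called and 8 passed the unadjusted threshold, as did 5 of 5 mature neutrophil markers (1 called) and 7 of 8 erythroid markers (4 called), all higher. In SH SNA against SH Sham, 3 of the 8 erythroid markers were called and no marker of the other 2 lists. Mature neutrophil markers followed the same order at the top, with 258 and 592 CPM in these samples, as did erythroid markers, with 538 and 649 CPM. Macrophage markers were between 87.3 and 102 CPM in all Sham samples and between 108 and 158 CPM in all SNA samples, and 7 of 12 rose over both housings. Of 7 markers of myelinating Schwann cells, 5 rose over both housings, with sums of 6268 to 8955 CPM in Sham and 7634 to 12143 CPM in SNA samples, highest in EE + SNA replicate 3 and next in SH SNA replicate 3 (11261 CPM). Of 7 satellite glia markers 3 rose, with sums of 2601 to 3155 CPM in Sham and 3037 to 3460 CPM in SNA samples, and of 5 fibroblast markers 2 rose, with sums of 607 to 705 and 617 to 960 CPM. Of 10 sensory neuron markers, 7 fell. The marker counts over both housings stand beside 22.4% of all genes called and 34.7% past the unadjusted threshold. Those of EE + SNA against SH Sham stand beside 12.5% and 27.2%, and those of SH SNA against SH Sham beside 11.2% called. Differences from these shares were not tested. The part of these cell types in the results was not tested. T lymphocyte markers summed to at most 2.08 CPM and none could be tested.

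The mitotic genes were therefore examined again without EE + SNA replicate 3 and with the marrow marker sum as a covariate, a choice made after the data were seen. Without this sample, the median log2 fold change of the 15 G2 and mitosis genes tested was 0.38 in place of 0.76 in EE + SNA against SH Sham, 0.15 in place of 0.47 in EE + SNA against EE Sham and 0.24 in place of 0.48 over both housings. With the covariate it was 0.33, 0.13 and 0.28. Over both housings, 5 genes were called in each case, and Cdkn1a, Mcm7, Tpx2, Aurka and E2f1 were these 5. Cdkn2c, Pcna and Birc5 were not. In EE + SNA against SH Sham, 1 gene (Cdkn1a) was called with the covariate, and Cdkn1a (higher) and E2f1 (lower) were called without the sample. The share of all genes called in these refits is not given here. Of the genes past the unadjusted threshold, 7 of 17 stayed past it without this sample in EE + SNA against SH Sham, 1 of 9 in EE + SNA against EE Sham and 9 of 15 over both housings.

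**Figure D4:**
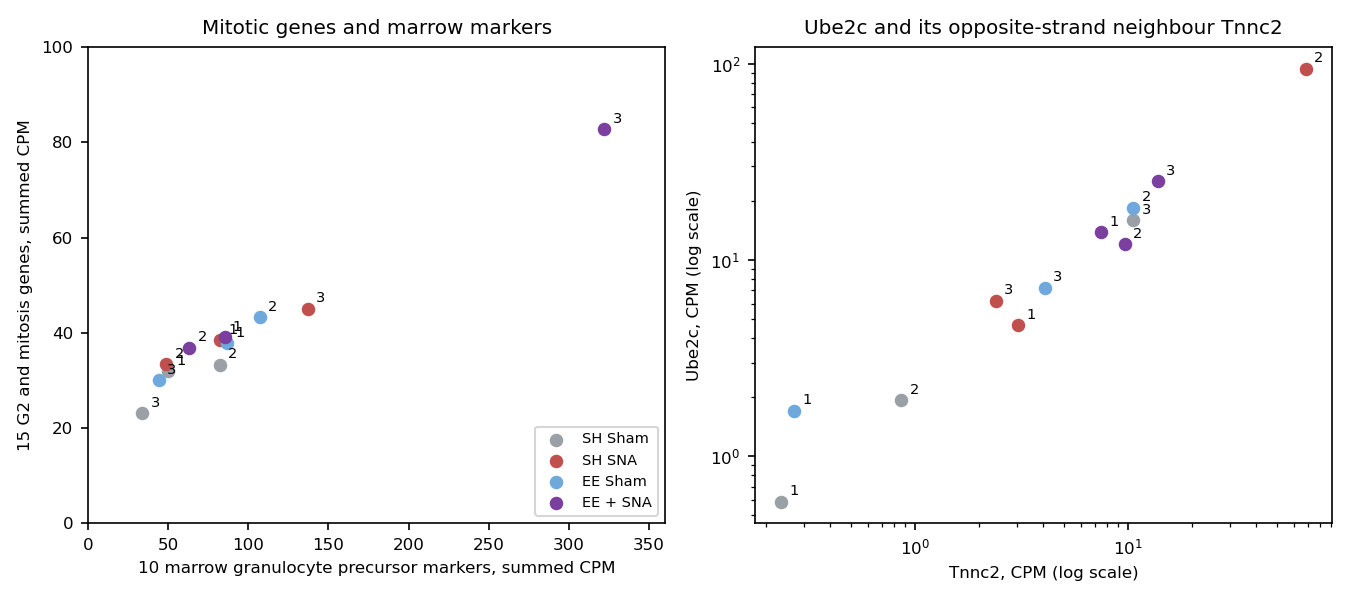
Left, summed CPM of 15 G2 and mitosis genes (y axis) against that of 10 marrow granulocyte precursor markers (x axis) in the 12 samples, coloured by group and numbered by replicate, with EE + SNA replicate 3 alone at 82.8 and 322 CPM. Right, CPM of Ube2c (y axis) against that of Tnnc2 (x axis), both on log scales, with SH SNA replicate 2 highest at 94.5 and 68.4 CPM.

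Ube2c, the ubiquitin-conjugating enzyme of the anaphase-promoting complex, had the widest range of the 39 genes. It was at 0.587, 1.94 and 16.0 CPM in SH Sham, at 4.66, 94.5 and 6.21 CPM in SH SNA, at 1.71, 18.5 and 7.23 CPM in EE Sham and at 13.9, 12.1 and 25.2 CPM in EE + SNA. It lies on chromosome 2 (164769898 to 164778822, plus strand), and 592 of its 2600 exon bases (22.8%) are shared with Tnnc2, a fast muscle troponin, on the opposite strand. Tnnc2 was at 0.235, 0.861 and 10.6 CPM, at 3.06, 68.4 and 2.39 CPM, at 0.271, 10.6 and 4.06 CPM and at 7.48, 9.66 and 13.8 CPM in the same 4 groups. Both genes were highest in SH SNA replicate 2 and next highest in EE + SNA replicate 3. Skeletal muscle markers summed to 750 CPM in SH SNA replicate 2 and to 2.46 to 135 CPM elsewhere. Whether counting used the strand is not given in the sources used here, and without it reads on the shared bases of the 2 genes cannot be told apart. The log2 fold change of Ube2c in SH SNA against SH Sham was 2.52 ± 1.1 (adjusted P = 0.159, edgeR) and −0.16 without SH SNA replicate 2. Over both housings it was 1.69 ± 0.72 and in EE + SNA against SH Sham 1.46 ± 0.65, past the unadjusted threshold only. The first became 0.47 ± 0.54 without SH SNA replicate 2 and was called at 2.29 ± 0.75 without EE Sham replicate 2, and the second was called at 3.79 ± 0.42 without SH Sham replicate 3.

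The housing comparisons called none of the 37 genes by edgeR at the adjusted threshold. EE Sham against SH Sham had 2 genes past the unadjusted threshold, the helicase subunit Mcm2 (0.44 ± 0.18) and Mki67 (0.76 ± 0.29), with 0.00616% of all genes called and 2.97% past the unadjusted threshold. Mcm2 was at 4.22, 3.30 and 4.35 CPM in SH Sham and at 5.23, 4.55 and 6.42 CPM in EE Sham. With the replicate number as a block Mki67 was called (0.77 ± 0.17, adjusted P = 0.0167, edgeR). Same-numbered samples of SH Sham and EE Sham had correlations of deviations from the group mean of 0.331, 0.137 and 0.111. SH Sham replicate 3 and EE Sham replicate 2 had 0.194, so these values do not settle whether the numbers pair samples. At each replicate number, Mki67 was higher in EE Sham than in SH Sham. In EE Sham 4 of 9 marrow granulocyte precursor markers passed the unadjusted threshold, all higher, and with their sum as a covariate Mki67 differed by 0.30 ± 0.21 (adjusted P = 1.0). DESeq2 called none of the 37 genes here.

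EE + SNA against SH SNA also had 2 genes past the unadjusted threshold, Bub1b (0.68 ± 0.27) and Cdc20 (0.88 ± 0.30), both with an adjusted P of 0.989 by edgeR, beside 0% of all genes called and 4.10% past the unadjusted threshold. Cdc20 was at 1.07, 0.845 and 1.03 CPM in SH SNA and at 1.87, 1.39 and 2.34 CPM in EE + SNA, without overlap. Of its 1868 exon bases, 53 are shared with Elovl1 on the opposite strand. Elovl1 was at 76.8, 59.5 and 75.7 CPM in SH SNA and at 70.2, 68.1 and 85.3 CPM in EE + SNA. Over both surgeries, EE against SH had 4 genes past the unadjusted threshold, with 0% of all genes called and 4.69% past the unadjusted threshold. These were Cdk1 (0.56 ± 0.26), Birc5 (0.45 ± 0.20), Bub1b (0.47 ± 0.20) and Cdc20 (0.60 ± 0.24), and all had an adjusted P of 0.997 by edgeR. Without EE + SNA replicate 3 none of the 4 passed the unadjusted threshold, with Cdk1 at 0.33 ± 0.24 and Birc5 at 0.27 ± 0.18. The interaction of housing and surgery called none, with 0% of all genes called, and Mcm2 alone passed the unadjusted threshold (−0.56 ± 0.26), beside 2.61% of all genes. DESeq2 called no gene of the 37 in these 3 comparisons.

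A further 88 cell cycle genes, named apart from the p53 response, held genes called in both directions after SNA. The counts over both housings below stand beside 22.4% of all genes called, and differences from that share were not tested. Among 11 transcription factors tested, Myc, a driver of G1 entry, rose by 0.59 ± 0.073 and Tfdp1, a partner of E2F, by 0.27 ± 0.055, while E2f6, a repressor of the E2F family, fell by 0.28 and Tfdp2 by 0.20 on the log2 scale over both housings (edgeR). In all, 3 of the 11 rose and 2 fell. Myc was at 12.4, 12.7 and 12.2 CPM in SH Sham and at 18.7, 21.1 and 19.4 CPM in SH SNA, and at 15.9, 13.1 and 13.9 CPM in EE Sham and 22.1, 18.0 and 21.4 CPM in EE + SNA, without overlap. Among 29 replication genes tested, 1 rose and 4 fell. Dbf4, which activates the kinase that fires origins, rose by 0.73 ± 0.15, and the helicase gene Hells fell by 0.51 and the origin subunit Orc5 by 0.17. Hells was at 8.21, 8.82 and 7.76 CPM in SH Sham and at 5.58, 5.24 and 5.65 CPM in SH SNA.

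Among 34 further mitotic genes tested, 1 rose and none fell over both housings. This was Prc1, a bundling protein of the central spindle (0.78 ± 0.11, adjusted P = 8.14e-05, edgeR). It was at 5.46, 5.81 and 4.61 CPM in SH Sham, 10.5, 9.89 and 11.2 CPM in SH SNA, 6.95, 5.62 and 5.44 CPM in EE Sham and 8.54, 7.57 and 10.5 CPM in EE + SNA, and SNA did not overlap with Sham. Wee1, which inhibits CDK1, fell by 0.55 in EE + SNA against SH Sham. None of the 7 other inhibitors and pocket proteins, Rb1 among them, was called over both housings, and 1 passed the unadjusted threshold. The median log2 fold change was 0.069 over the 34 mitotic genes and −0.019 over the 29 replication genes, against 0.0071 over all genes tested.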

How the data were processed

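RNA of 12 samples (4 groups of 3, each a pool of 2 mice) was compared. The authors aligned paired reads to mm10 with TopHat2 2.0.12 and Bowtie2 2.2.3 and counted them per gene with HTSeq (0.6.0 in the submitters' processing notes). The deposited counts are whole numbers of reads per gene name, not normalized. The deposited FPKM, which the authors divided by gene length and library total, served only to compare levels between genes.

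Scaling by TMM and filtering by filterByExpr (10 counts, total 15), both in edgeR 4.0.16 under R 4.3.3, left 16238 genes. Pairs of groups were fitted on their 6 samples, and effects over both housings, both surgeries and their interaction on all 12, with glmQLFit and glmQLFTest (two-sided). A gene was called at a Benjamini-Hochberg adjusted P under 0.05 over all genes tested. Fold changes are log2 with SE, taken as the size of the change over the root of F. The genes and lists were chosen with earlier results of these data known. Named genes are all 39, with the value in every sample for Mki67, Top2a, Cdk1, Cdkn1a, Ccnd1 and those called in any comparison, a fold change where the unadjusted P was under 0.05, and up to 4 called genes with the smallest P of each further list. A gene that this rule names among the replication genes is not reported here. Where other values are named, they were chosen after being seen. Markers Adgre1 and Chil3 were matched by their older symbols.

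The main fits paired no samples. Between EE Sham and SH Sham, same-numbered samples had correlations of deviations from the group mean of 0.331, 0.137 and 0.111. In the same comparison SH Sham replicate 3 and EE Sham replicate 2 had 0.194. Same-numbered samples of SH SNA and EE + SNA had 0.0573, 0.113 and 0.126. The largest correlation between any 2 groups, 0.404, was between differently numbered samples, SH Sham replicate 3 and SH SNA replicate 2. A pairing by number would rest on the correlations alone, which do not settle it. Alternatives were DESeq2 1.42.0, other scalings, tests and filters, a replicate block, leaving out samples and, added after seeing the data, marrow or muscle markers as a covariate. The depth limits genes of few reads, and intervals and P-values cover the spread between 3 pools per group. Promoter sequences came from RefSeq and positions and exon overlaps from GENCODE, both on GRCm38.p6.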

Additional observations from a re-analysis of the deposited data

Results flagged for a closer look

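Each group of 6 SNA or 6 Sham samples was searched for a sample whose gap to its neighbour took up an unusual share of the whole range. Of 74 such groups looked at, 14 had one. The cutoff is set at about 1 in 20 for a single group, but the 74 groups share the same 12 samples and are not independent. The share of all genes flagged by this rule is not given, so the count is no result about the cell cycle genes as a set. In 9 of the 14, the sample was EE + SNA replicate 3. It stood above the other SNA samples for Mcm3 at 4.59 CPM, Pcna at 47.7 CPM, Rrm1 at 20.6 CPM, Rrm2 at 5.00 CPM, Top2a at 9.35 CPM, Cdk1 at 3.06 CPM, Birc5 at 7.09 CPM, Plk1 at 1.85 CPM and Cenpe at 3.30 CPM. The next highest SNA samples were at 2.94 CPM for Mcm3, 41.9 CPM for Pcna, 16.8 CPM for Rrm1, 2.76 CPM for Rrm2, 3.26 CPM for Top2a, 1.78 CPM for Cdk1, 4.27 CPM for Birc5, 1.07 CPM for Plk1 and 1.91 CPM for Cenpe. These genes are used for DNA synthesis and mitosis, and they were high together in the sample that also had the most marrow markers. The same sample was highest for markers of mature neutrophils, erythroid cells, macrophages, myelinating Schwann cells, endothelium, fibroblasts and B lymphocyte precursors. Markers of sensory neurons, satellite glia, T lymphocytes and skeletal muscle were highest in other samples. The part of these cells was not tested.

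Ube2c was at 94.5 CPM in SH SNA replicate 2, against at most 25.2 CPM in the other SNA samples. Among the 6 Sham samples, EE Sham replicate 1 stood low for Pcna at 32.0 CPM and high for Plk1 at 1.08 CPM, and EE Sham replicate 2 stood high for Ccnb1 at 1.52 CPM and for Cdc20 at 2.2 CPM.

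Of the 37 genes tested, Mcm2 alone passed the unadjusted threshold in the interaction test, beside 2.61% of all genes. The SNA effect in EE minus that in SH was −0.56 on the log2 scale. The unadjusted P was 0.0482 and the adjusted P 1.0 in edgeR over all genes, so that a difference between housings was not shown. The estimate also uses EE Sham, where dataset and condition cannot be told apart. The log2 fold change of Mcm2 was 0.18 ± 0.16 in SH and −0.39 ± 0.20 in EE.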

How the results depend on the processing

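Cdkn1a was called higher after SNA under every alternative run. Counts of cell cycle genes called depended on the setting, and they are given without the share of all genes called under that setting. They are therefore no result about the cell cycle genes as a set. With no filter on low counts, they were 5 in place of 3 in SH SNA and 13 in place of 4 in EE + SNA against SH Sham, 5 in place of 1 for EE + SNA against EE Sham, 14 in place of 8 over both housings, and 1 in place of 0 for EE Sham against SH Sham (Mki67), EE against SH over both surgeries (Mki67) and the interaction (Ube2c). Against SH Sham, DESeq2 called 1 gene in SH SNA and the likelihood ratio test 8 in EE + SNA. With marrow markers as a covariate, EE + SNA against SH Sham gave 1 and both housings together 5, as did leaving out replicate 3 of both SNA groups. With muscle markers, EE + SNA against SH Sham gave 2. Leaving out 1 sample at a time gave, against SH Sham, 1 to 2 genes in SH SNA and 1 to 9 in EE + SNA (9 without EE + SNA replicate 2), 1 to 2 for EE + SNA against EE Sham (2 without EE Sham replicate 2) and 5 to 9 over both housings. EE + SNA against SH SNA gave 0 throughout.

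Against SH Sham, and again without the share of all genes called, the replicate block called 1 gene in SH SNA, 2 in EE + SNA and 1 (Mki67) in EE Sham. Whether replicate numbers pair samples in the last of these is not settled. Elsewhere same-numbered samples had correlations from −0.235 to 0.236, and the block shares only a number.

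Of 1032 refits of single fold changes over 60 results, 922 kept their direction and side of the adjusted threshold, 36 newly passed it, 72 no longer passed it and 2 changed sign. The 60 results are those past the unadjusted threshold, and most were not called in the main fit. Keeping the side therefore often meant staying uncalled. The 72 lost calls could come only from results called in the main fit, and they fell on 9 of these. Ube2c in SH SNA against SH Sham ranged from −0.16 (without SH SNA replicate 2) to 4.84 (without SH Sham replicate 3), and Mki67 in EE + SNA against SH Sham became −0.070 with marrow markers as a covariate. The causes of these changes were not tested, and refits without a sample or with a covariate do not test them. Most mitotic genes were under 1 FPKM, so that depth limits their precision.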
